A study of Mus musculus with 8 samples.

Results

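Protamines and transition proteins are the small basic proteins that repackage DNA in the sperm head. Their transcripts were measured here in testis RNA by 8 probe sets of 5 genes, Prm1, Prm2, Prm3, Tnp1 and Tnp2, out of 12422 probe sets on the array, of which 10833 have a single symbol and name 8251 genes. Each probe set pools the signal of several short probes for 1 transcript, and the members were all probe sets whose annotated symbol is 1 of these 5 names. The series asked which testis genes differ in expression among house mice. Total RNA from testis was hybridised to Affymetrix expression arrays in 4 groups of 2, with titles that place all of them in Mus musculus and then name castaneus, domesticus, musculus or ssp. No treatment, transgene or deletion is named for any group. The meaning of ssp, the strain, the age and how many animals gave each RNA were not given in the sources used here. Both arrays of a group are called technical replicates, so every SD, interval and p-value below measures the spread between such arrays and not between animals.

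During spermiogenesis, the haploid phase in which round spermatids become sperm, most histones are removed from the DNA. Transition proteins 1 and 2, encoded by Tnp1 and Tnp2, take their place for a time in the condensing nucleus and are then replaced by the arginine-rich protamines 1 and 2, encoded by Prm1 and Prm2. Prm3, named for its place in the same gene cluster, encodes an acidic protein of the spermatid cytoplasm that does not bind DNA as a protamine does. These genes are transcribed in round spermatids and their mRNAs are stored before translation in elongating spermatids, so in whole testis their transcripts come from spermatids. Tnp2, Prm3, Prm2 and Prm1 lie next to each other on chromosome 16, between Socs1 and Rmi2, and Tnp1 lies on chromosome 1.

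The sequence just before each gene's start is shown because the activator CREM binds cyclic AMP response elements in promoters of spermatid genes. RefSeq promoters of build GRCm38.p6 were found for all 5 genes. The lines below give the 120 bases before the annotated start on the minus strand, which is the coding strand of every member. They are at chr16:10796824-10796943 for Prm1, chr16:10792106-10792225 for Prm2, chr16:10790915-10791034 for Prm3, chr1:73015900-73016019 for Tnp1 and chr16:10788656-10788775 for Tnp2. Capitals mark either an 8-base word within 1 changed letter of the full element TGACGTCA on either strand, or the letters TATA beginning 40 to 20 bases before the start.
Prm1: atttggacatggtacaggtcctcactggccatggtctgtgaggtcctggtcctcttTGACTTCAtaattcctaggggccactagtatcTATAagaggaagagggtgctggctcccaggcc
Prm2: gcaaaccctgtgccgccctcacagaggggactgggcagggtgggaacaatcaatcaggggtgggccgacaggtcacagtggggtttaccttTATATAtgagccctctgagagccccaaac
Prm3: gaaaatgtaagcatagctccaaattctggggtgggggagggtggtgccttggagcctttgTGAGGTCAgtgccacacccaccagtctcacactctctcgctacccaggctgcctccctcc
Tnp1: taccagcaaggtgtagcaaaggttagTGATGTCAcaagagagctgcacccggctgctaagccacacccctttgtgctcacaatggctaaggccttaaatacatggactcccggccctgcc
Tnp2: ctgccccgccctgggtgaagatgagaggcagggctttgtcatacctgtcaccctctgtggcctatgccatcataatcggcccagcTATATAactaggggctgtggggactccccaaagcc

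A word near the element stood in the promoters of Prm1 (TGACTTCA), Prm3 (TGAGGTCA) and Tnp1 (TGATGTCA), and none was in the 250 bases before the start of Prm2 or Tnp2. Of 32851 RefSeq promoters, 10.6% held such a word in the same 250 bases, and 1.55% held the full TGACGTCA. The letters TATA stood at the searched distance in Prm1, Prm2 and Tnp2, and in 5.7% of all promoters. In Prm2 and Tnp2 this match was a run of TATATA, in which the word occurs with overlap. Prm3 and Tnp1 had none there. These matches describe letters, and no factor binding was measured.

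None of the tested member probe sets met the rule for a difference among the 4 mouse RNAs, and Prm3, low on both musculus arrays on its brighter probe set, came closest. A probe set was said to differ if the p of limma's moderated F test, adjusted by Benjamini-Hochberg over all probe sets tested, was under 0.05 and its group means lay at least 1 log2, or 2-fold, apart. Of the 8 member probe sets, 6 passed the filter on low intensity and 0 of these differed, where 1.76% of all 8874 tested probe sets did. At that share 6 probe sets may well hold no call, so 0 is not a result about the members. At an unadjusted p under 0.05 there was 1 of 6, the brighter Prm3 probe set, against 15.9% of all tested. The 1 of 6 is near that share, so it is not a result about the members. The median range of group means was 0.48 log2 (1.40-fold) over the 6 tested members and 0.81 log2 (1.75-fold) over all tested probe sets. In whole tissue, fewer spermatids and less RNA per spermatid cannot be told apart. Whether the probes match the transcripts of all 4 groups equally well was not tested.

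**Figure D1:**
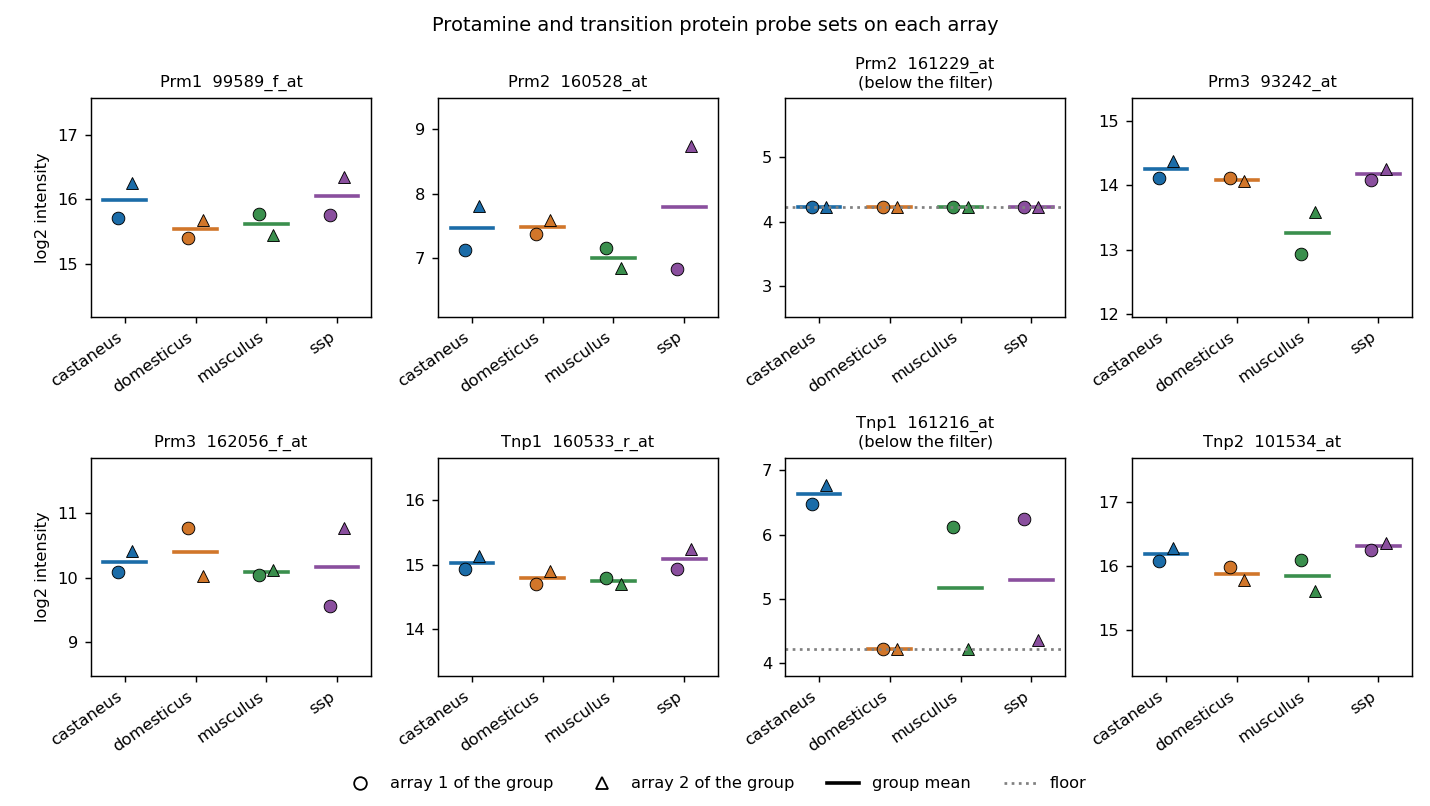
Log2 intensity of the 8 member probe sets on each of the 8 arrays, 1 panel per probe set with its own axis of equal length. Circles and triangles are the 2 arrays of a group and bars are group means. The dotted line is the floor at an intensity of 18.7. In the panel of Prm3 93242_at both musculus arrays lie below the other 6, and in that of Prm2 160528_at array 2 of ssp lies far above array 1.

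Tnp2, the transition protein needed for normal chromatin condensation and sperm function, was the brightest probe set on array 1 of every group and the second brightest on array 2 of every group. Its single probe set (101534_at) read 69070 and 79849 in castaneus, 64507 and 56240 in domesticus, 69588 and 49943 in musculus, and 78064 and 84310 in ssp. The ssp mean was the highest and the musculus mean the lowest, 1.38-fold apart, and the 2 musculus arrays alone differed 1.39-fold. Array 1 of musculus lay above array 1 of castaneus, so the groups overlap, and the F test gave an adjusted p of 0.653 (limma).

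Tnp1, the most abundant transition protein in mouse, was the tested member that varied least between the arrays of a group. Probe set 160533_r_at read 31163 and 35934 in castaneus, 26540 and 30631 in domesticus, 28282 and 26482 in musculus, and 31376 and 38702 in ssp. Both castaneus and both ssp arrays lay above the 4 arrays of the other groups, by as little as 31163 against 30631. Group means ran from 27367 in musculus to 34847 in ssp, a 1.27-fold range with a pooled SD between arrays of 0.15 log2 (limma F test, adjusted p = 0.759). The suffix _r marks, in the manufacturer's naming, a probe set that met fewer design rules.

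A second Tnp1 probe set, 161216_at, was dim and did not pass the filter. It read 89 and 109.5 in castaneus, 6.7 and 9.1 in domesticus, 69.3 and 9.8 in musculus, and 76 and 20.5 in ssp. Values under the floor of 18.7 have no order, so castaneus was at least 5.28-fold above domesticus, while the 2 arrays differed at least 3.71-fold within musculus and 3.71-fold within ssp. With no filter on dim probe sets it was tested and did not differ (limma, adjusted p = 0.517). The dim probe set read lowest in domesticus and the bright one in musculus.

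Prm1, the protamine shared by all mammals, read 53756 and 78090 in castaneus, 43402 and 52736 in domesticus, 55982 and 44770 in musculus, and 55467 and 83529 in ssp on its single probe set, 99589_f_at. Array 2 was the higher in castaneus, domesticus and ssp and the lower in musculus. The groups overlapped, and array 1 of castaneus, of musculus and of ssp all lay between 53756 and 55982. The ssp mean of 68067 was 1.42-fold above the domesticus mean of 47842, and the arrays of ssp differed by 1.51-fold (limma F test, adjusted p = 0.702). The suffix _f marks probes that can match related transcripts.

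Prm2, whose protein is made as a precursor and trimmed on the DNA, was measured only by dim probe sets. Probe set 160528_at read 139.4 and 223.8 in castaneus, 166 and 192.8 in domesticus, 142.9 and 115.1 in musculus, and 114.2 and 428.5 in ssp. The lowest and the highest of the 8 values were thus the 2 arrays of ssp, 3.75-fold apart. The range of group means was 1.72-fold, and the pooled SD of 0.73 log2 was the largest of the tested members (limma F test, adjusted p = 0.857). Without array 1 of ssp the range was 1.74 log2, and without array 2 it was 0.65 log2. Probe set 161229_at read 4.4 to 14.1 and was under the floor on all 8 arrays, so it gave no order of the groups. On these probe sets Prm2 stood between the 39.5th and 70.7th percentile of an array or under its 7.36th, where Prm1 was among the 8 brightest probe sets of every array. Why these Prm2 probe sets were dim was not tested, and they give no measure of how much Prm2 mRNA each RNA held beside Prm1.

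Prm3 came closest to differing, with its lowest values in musculus. Probe set 93242_at read 17790 and 21265 in castaneus, 17651 and 17062 in domesticus, 7838 and 12244 in musculus, and 17367 and 19461 in ssp. Both musculus arrays lay below the other 6, which themselves stayed between 17062 and 21265. Among all tested probe sets 6.67% had both musculus arrays below the other 6, and among the 6 tested members 1 did. With so few members, that 1 is not a result about them. The musculus mean of 9796 was 1.99-fold below that of castaneus, 1.77-fold below domesticus and 1.88-fold below ssp. These differences had unadjusted p of 0.0145, 0.0303 and 0.0208 in limma and adjusted p of 0.229, 0.335 and 0.263, so none passed. The arrays of musculus differed 1.56-fold, more than those of any other group for this probe set. The log2 difference from castaneus was 0.67 without array 1 of musculus and 1.31 without its array 2. With a trended and robust variance model the adjusted p for castaneus against musculus was 0.0424, at a difference of 0.99 log2 that stayed under the threshold of 1. The adjusted p over all alternatives ran from 0.0424 to 0.618.

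The other Prm3 probe set, 162056_f_at, did not show the same order. It read 1089 and 1364 in castaneus, 1746 and 1043 in domesticus, 1060 and 1114 in musculus, and 758.3 and 1749 in ssp. Musculus had the lowest mean here too, at 1087, but its arrays lay within the range of the others. The lowest and the highest value were again the 2 arrays of ssp, 2.31-fold apart (limma F test, adjusted p = 0.965). The range of group means was 1.24-fold.

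No member probe set differed in any of the 6 pairs of groups, where limma's contrasts called 0.349% to 0.98% of all tested probe sets. At such shares 0 is not a result about the members. By pair the shares of all tested probe sets called were 0.676% for castaneus with domesticus, 0.947% for castaneus with musculus, 0.349% for castaneus with ssp, 0.744% for domesticus with musculus, 0.687% for domesticus with ssp and 0.98% for musculus with ssp. Of the 36 member contrasts, 3 had an unadjusted p under 0.05, the Prm3 contrasts with musculus. Over all tested probe sets that share was 13.5%, 12.2% and 13.3% in the pairs of musculus with castaneus, domesticus and ssp, 11% and 10.8% in those of castaneus with domesticus and ssp, and 12.4% for domesticus with ssp. The 3 of 36 did not exceed any of these shares. They share the musculus arrays of 1 probe set and are not separate observations. The 95% intervals show how large a difference the arrays leave room for. For Tnp1 all 6 intervals stayed within 2-fold in either direction, the widest reaching 1.94-fold. For Tnp2 this held for 4 of 6, with the widest reaching 2.17-fold for musculus against ssp. Prm1 had intervals reaching 2.50-fold, Prm3 on 93242_at 3.27-fold and on 162056_f_at 2.70-fold, and Prm2 4.86-fold. For Prm2 and the dimmer Prm3 probe set, none of the 6 intervals stayed within 2-fold.

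**Figure D2:**
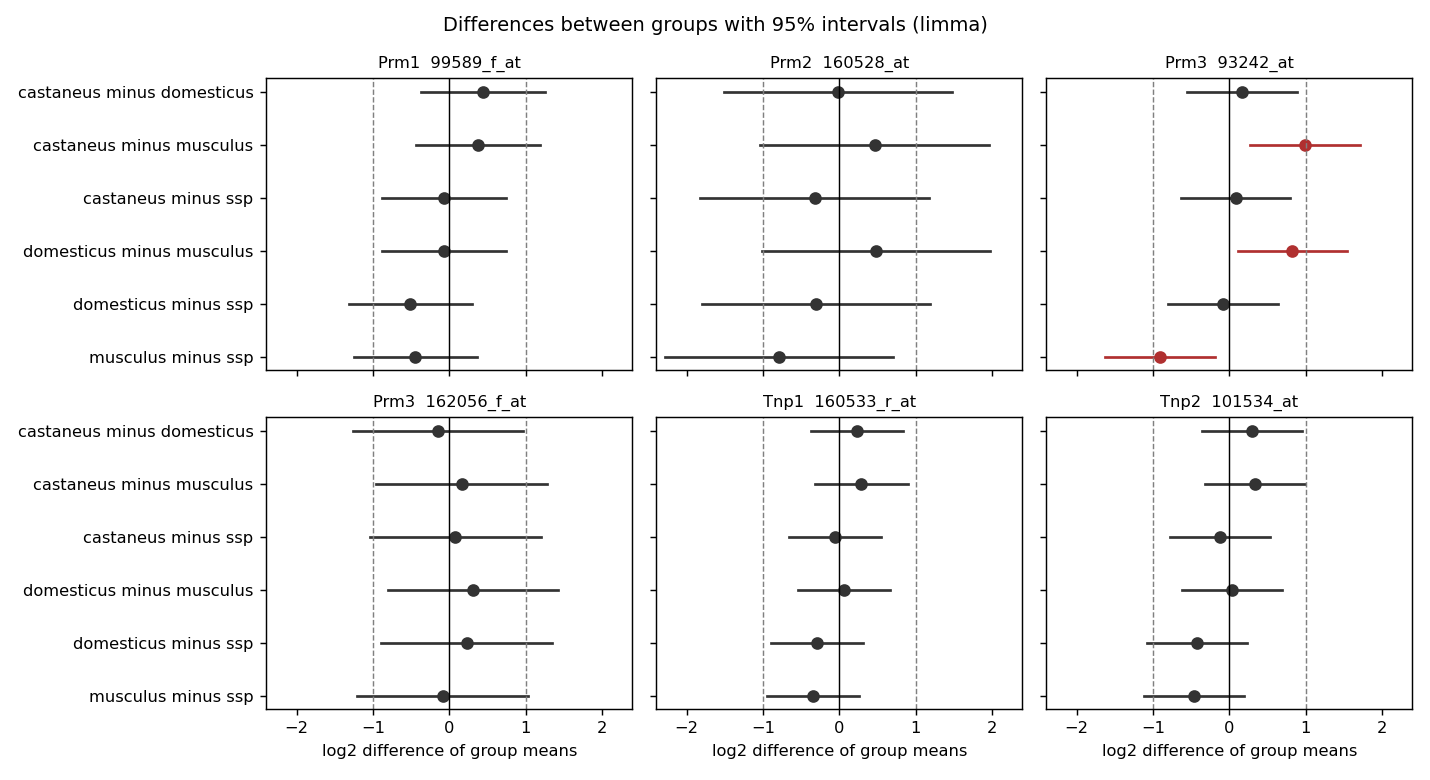
Log2 differences between group means for the 6 tested member probe sets in the 6 pairs of groups, with 95% intervals from limma. Dashed lines mark 2-fold in either direction, and red marks an unadjusted p under 0.05. The 3 red contrasts are those of Prm3 93242_at with musculus, and none passed after adjustment.

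The median log2 difference over the 6 tested members was 0.35 for castaneus minus musculus, where all 6 were higher in castaneus, and -0.45 for musculus minus ssp, where all 6 were lower in musculus. Over all tested probe sets these medians were -0.0031 and -0.04. Of them, 49.8% were higher in castaneus than in musculus and 47.1% higher in musculus than in ssp. For castaneus over domesticus the share was 51.2%, and for domesticus over ssp 46.4%. For castaneus minus domesticus the members' median was 0.20, with 4 of 6 higher in castaneus, and for domesticus minus ssp it was -0.30, with 5 of 6 lower in domesticus. Castaneus minus ssp and domesticus minus musculus gave -0.06 and 0.19. The pairs share groups, so they are not separate observations. Nor are the 6 probe sets, which share the same arrays and include both 93242_at and 162056_f_at of Prm3. Tnp1, Tnp2 and Prm1 each had their highest mean in ssp and their next in castaneus. Within that order, ssp and castaneus differed by 1.04 to 1.09-fold and domesticus and musculus by 1.02 to 1.05-fold for these 3 genes, and no neighbours in the order differed by limma.

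**Figure D3:**
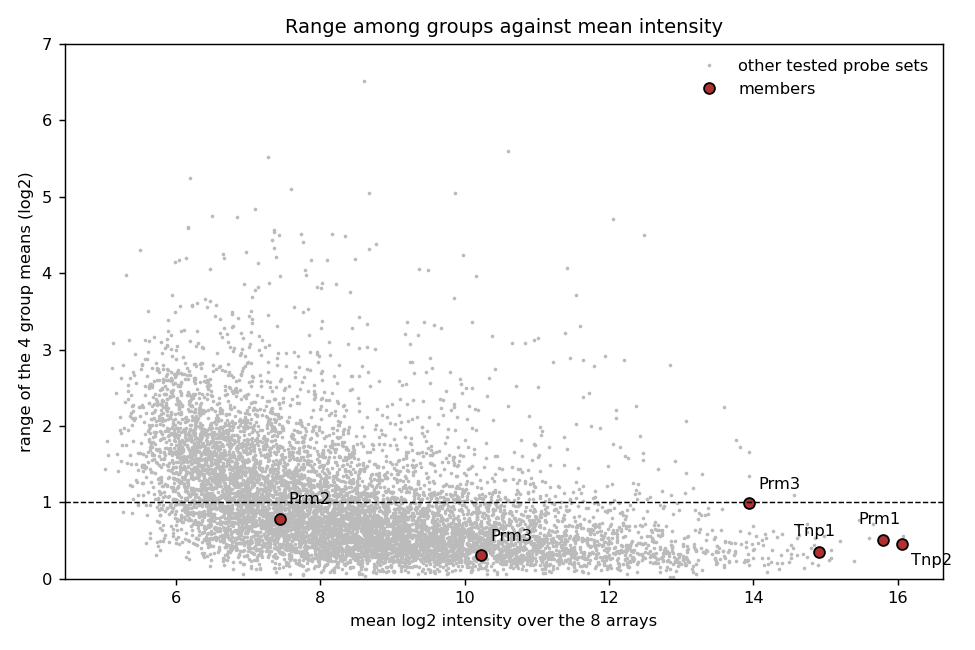
Range of the 4 group means against mean log2 intensity for the 8874 tested probe sets, with the 6 tested members in red. The dashed line is the threshold of 1 log2. Prm3 93242_at, at 0.99, sits just under the line, and the other 5 members lie between 0.31 and 0.79.

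Arrays differed at the bright end, where most members lie. The intensity passed by 0.1% of an array's probe sets ran from 28961 on array 2 of musculus to 38827 on array 2 of ssp, the same arrays on which Tnp1 and Tnp2 read lowest and highest. Prm1 also read highest on that ssp array. Tnp2 and Prm1 lay above this intensity on every array, so it is not independent of them. With quantile normalization, which gives every array the same distribution, the range of group means was 0.12 log2 for Tnp1 and 0.23 for Prm1. For Tnp2, at the top of the distribution, it was 0 log2. Tnp2 had rank 1 on array 1 and rank 2 on array 2 of every group, so its 0 was fixed in advance. Prm1, at ranks 3 to 8, and Tnp1, at ranks 14 to 20, had little room to vary. These ranges are thus no test of what moved the 3 genes. Under the same step the range for Prm3 93242_at was 0.83 log2, lowest in musculus (limma, adjusted p = 0.32).

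A ratio between members on the same array is free of any scale that the array's values share. Levels of different probe sets cannot be set against each other, so each log2 ratio is given as its deviation from the mean over 8 arrays. The group means of Tnp2 over Tnp1 differed by at most 1.10-fold, and those of Tnp1 over Prm1 by at most 1.16-fold. For Tnp2 over Tnp1 the deviation was 0.08 in ssp, 0.01 in castaneus, -0.03 in musculus and -0.06 in domesticus, and the arrays of domesticus lay 0.20 on either side of their mean. Prm3 over Prm1 deviated by -0.49 in musculus, 0.40 in domesticus, 0.12 in castaneus and -0.03 in ssp. Its 2 musculus arrays lay 0.48 on either side of their mean, and the second, at -0.01, was above array 2 of castaneus and of ssp. Prm3 over Tnp1 deviated by -0.88 and -0.14 on the musculus arrays, both below the other 6, which lay between -0.02 and 0.39. Prm3 over Tnp2 deviated by -1.04 and 0.09 in musculus, and here the second array lay above both ssp arrays. So on the brighter Prm3 probe set both musculus arrays lay below the other 6 as a level and as a ratio to Tnp1. For the ratio to Tnp1 the second array did so by only -0.14 against -0.02. As a ratio to Prm1 or Tnp2, 1 musculus array did so. These ratios reuse the Prm3 values already seen to be low in musculus, so they are not separate observations. The dimmer Prm3 probe set, not used in these ratios, had its musculus arrays within the range of the others. Prm2 over Prm1, on the dim Prm2 probe set, ranged 1.46-fold among group means and 2.49-fold between the 2 ssp arrays.

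**Figure D4:**
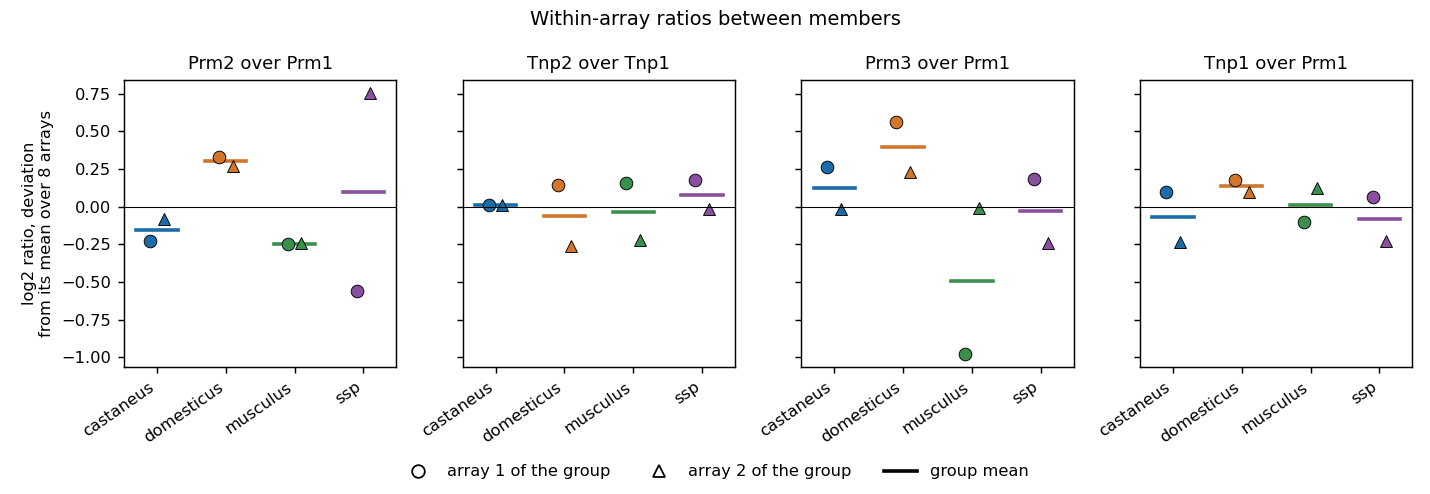
Log2 ratios between members on each array, as deviations from the mean over the 8 arrays, for the brightest probe set of each gene. Circles and triangles are arrays 1 and 2 of a group and bars are group means. Tnp2 over Tnp1 and Tnp1 over Prm1 stay between -0.26 and 0.18, and the widest gaps between the arrays of a group are Prm2 over Prm1 in ssp and Prm3 over Prm1 in musculus.

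Across the 8 arrays, Prm1 and Tnp1 had the most similar pattern among the members, with a Pearson correlation of log2 intensity of 0.96. Prm1 and Tnp2 gave 0.78 and Tnp1 and Tnp2 gave 0.76. Prm3 followed the others less, at 0.38 with Prm1, 0.58 with Tnp1 and 0.37 with Tnp2. These values describe 8 arrays from 4 RNA pairs that share array scale and the bright end of the intensity range, and they carry no test. Among all named genes, the pattern most like that of Prm1 was that of Smcp, which encodes a cysteine-rich protein of the sperm mitochondrial capsule (r = 0.99), followed by Vpreb3, a gene of B cell precursors, and Tnp1 (both 0.96). Arsa, the lysosomal arylsulfatase A, and Ndufaf1, a complex I assembly factor, were most like Tnp1 (both 0.97), with Smcp next (0.96). For Tnp2 the nearest were Gstm5, a glutathione transferase (0.98), Ubr4, a ubiquitin ligase (0.98), and Rfk, riboflavin kinase (0.97). Foxp1, a forkhead transcription factor (0.99), Capn6, a calpain (0.99), and Pacrgl (0.98) were nearest to Prm3. Like Prm3 they had their lowest means in musculus, 53.9 for Foxp1 and 32.2 for Capn6 against at least 141.4 and 163.75 in the others. They were picked for their likeness to Prm3 on these same arrays, so a low musculus mean follows from that choice. For Prm2 the nearest were Mrps17, of the mitochondrial ribosome (0.99), Ndufb3, of complex I (0.98), and Entpd6 (0.97).

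No probe set differed in 4 lists of genes that work with protamines and transition proteins. By limma's F test 1.76% of all tested probe sets differed and 15.9% had an unadjusted p under 0.05. At the first share, lists of 5 to 25 probe sets can hold no call, so 0 is not a result about these lists. Histone variants of spermatids were measured for 5 of 14 listed genes, and 0 of 5 probe sets differed by limma's F test, with 0 at an unadjusted p under 0.05. The widest ranges were those of H1f6, the testis linker histone, from 201.3 in castaneus to 336.5 in ssp, and of H2az1, which encodes histone H2A.Z, from 2316 in musculus to 3615 in castaneus. Among genes of nuclear remodelling and protamine modification, 0 of 25 probe sets differed and 2 had an unadjusted p under 0.05. Their widest ranges were 3.35-fold for Hspa4, a chaperone, and 2.84-fold for Smarca5, a chromatin remodelling ATPase, with adjusted p of 0.379 and 0.317. For transcription factors of spermatid genes, the group with Crem, the counts were 0 of 14 and 4 of 14. Mybl1, a regulator of meiotic genes, ran from 54.3 in castaneus to 376.4 in ssp (adjusted p = 0.34), and Creb1, on 102672_g_at, from 66.5 in domesticus to 310.3 in castaneus (adjusted p = 0.207). For storage and translation of mRNA the counts were 0 of 18 and 3 of 18. Here Ybx1, a Y-box RNA-binding protein, ran from 9148 in musculus to 30139 in domesticus (adjusted p = 0.104), and Ddx4, the germ cell RNA helicase, from 1473 in castaneus to 4032 in ssp (adjusted p = 0.172). In none of these 4 lists did a probe set differ in any pair of groups.

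Of the genes that flank the chromosome 16 cluster, 8 of 12 listed were measured, with 9 tested probe sets. At an unadjusted p under 0.05 by limma's F test there were 2 of 9, against 15.9% of all tested. By the full rule 1 of 9 differed, where 1.76% of all tested probe sets did. This was Snn, stannin, at 527.9 in domesticus, 424.6 in musculus, 121.8 in castaneus and 26.25 in ssp (limma F test, adjusted p = 0.0308), higher in domesticus and in musculus than in ssp. The call of Snn was lost with the replicate number as a block (adjusted p = 0.0675), with no filter on dim probe sets and without any 1 of the 8 arrays. Socs1, a suppressor of cytokine signalling and the nearest neighbour of Tnp2, ran from 187.7 to 213.9 among group means and did not differ (adjusted p = 0.994). Rsl1d1, a nucleolar protein gene, was lowest in musculus at 374.7 against 602.7 to 1072 on 160283_at (adjusted p = 0.0829), while its other probe set was highest in musculus, at 85.7. Clec16a and Gspt1, a translation termination factor, ranged 1.38-fold and 1.17-fold, with adjusted p of 0.772 and 0.916. Litaf ranged 1.75-fold and Nubp1, of iron-sulfur cluster assembly, 1.76-fold, with adjusted p of 0.437 and 0.709. Ciita, the activator of class II histocompatibility genes, read 51.9 to 74.75 (adjusted p = 0.981).

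Markers of the cells that hold these transcripts were present on every array. Over all tested probe sets 1.76% differed, 15.9% had an unadjusted p under 0.05 by limma's F test, and the median range was 0.81 log2. None of the elongating spermatid probe sets differed, 0 of 19 by limma's F test and 0 at an unadjusted p under 0.05, and their median range was 0.28 log2. Their summed intensity was 360836 to 387806 in castaneus, 309772 to 328239 in domesticus, 299977 to 343594 in musculus and 386198 to 395910 in ssp, the same order of groups as for Tnp1 and Prm1 at the high end. The widest ranges were 2.06-fold for Odf2, of the outer dense fibres, and 1.65-fold for Tekt1, a tektin. Round spermatid markers gave 0 of 9, also with 0 at an unadjusted p under 0.05, and summed to 34159 to 37667 in domesticus, 36738 to 37216 in musculus, 37850 to 39967 in castaneus and 40416 to 41800 in ssp. Their widest ranges were those of Ace, the angiotensin-converting enzyme with a testis form, and Capza3, of the sperm actin capping protein, at 2.79-fold and 1.62-fold. The part of spermatid content in the values of Tnp1, Tnp2 and Prm1 was not tested.

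Markers of 2 other cell types had higher sums on both musculus arrays than on any other array. Prm3 93242_at read lowest on the same 2 arrays. Leydig cell markers, of the testosterone-making cells, differed at 5 of 20 probe sets, from Ptgds, Star and Cyp17a1, all highest in musculus. This was a share of 25% where 1.76% of all tested probe sets differed. Several of the 5 probe sets measure the same gene, Ptgds, and are not separate observations. The lists were chosen with earlier results of these data known, so the share is no test of these markers. Of these 5, 2 kept their call with the replicate number as a block and 1 with no filter on dim probe sets. Without 1 of the ssp arrays 1 kept it, 102105_f_at of Ptgds, and without any 1 of the other 6 arrays 0 did, by limma. All 5 had their highest mean in musculus under each of these settings. The markers summed to 63891 to 71017 there against 14994 to 23509 in the other groups. Macrophage markers summed to 4869 to 5596 in musculus against 2722 to 3632 elsewhere, with 0 of 12 differing among the groups, 5 at an unadjusted p under 0.05 and 1 higher in musculus than in castaneus by limma's contrast. The widest ranges were 9.74-fold for C1qc, of complement, and 9.08-fold for Lyz2, lysozyme, both lowest in castaneus. C1qc read 952.4 in musculus and at most 394.6 elsewhere, but Lyz2 read 301.9 in domesticus and 302.7 in musculus. The part of Leydig cells and macrophages in the Prm3 values was not tested. Among spermatocyte markers 1 of 7 probe sets differed, Syce2 of the synaptonemal complex, at 253.3 in ssp against 1170 to 1393 (limma F test, adjusted p = 0.0321), a call lost with the replicate block (adjusted p = 0.0594), with no filter and without any 1 array, and the list's sum was 13084 to 13702 in domesticus against at least 15918 elsewhere. In spermatogonia, Sertoli cells and peritubular myoid cells, 0 of 11, 0 of 19 and 0 of 7 differed, with 3, 1 and 0 at an unadjusted p under 0.05. The widest of these were Stra8 and Pou5f1, Gdnf and Dhh, and Tpm2 and Des, ranging from 2.16-fold to 6.08-fold, with Pou5f1 at the floor on both ssp arrays and at least 5.09-fold higher in domesticus. Of epididymis markers only 3 probe sets were tested, Adam7 and Gpx5 among them, with 0 differing, 1 at an unadjusted p under 0.05 and a sum of at most 396.2 on any array.

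**Figure D5:**
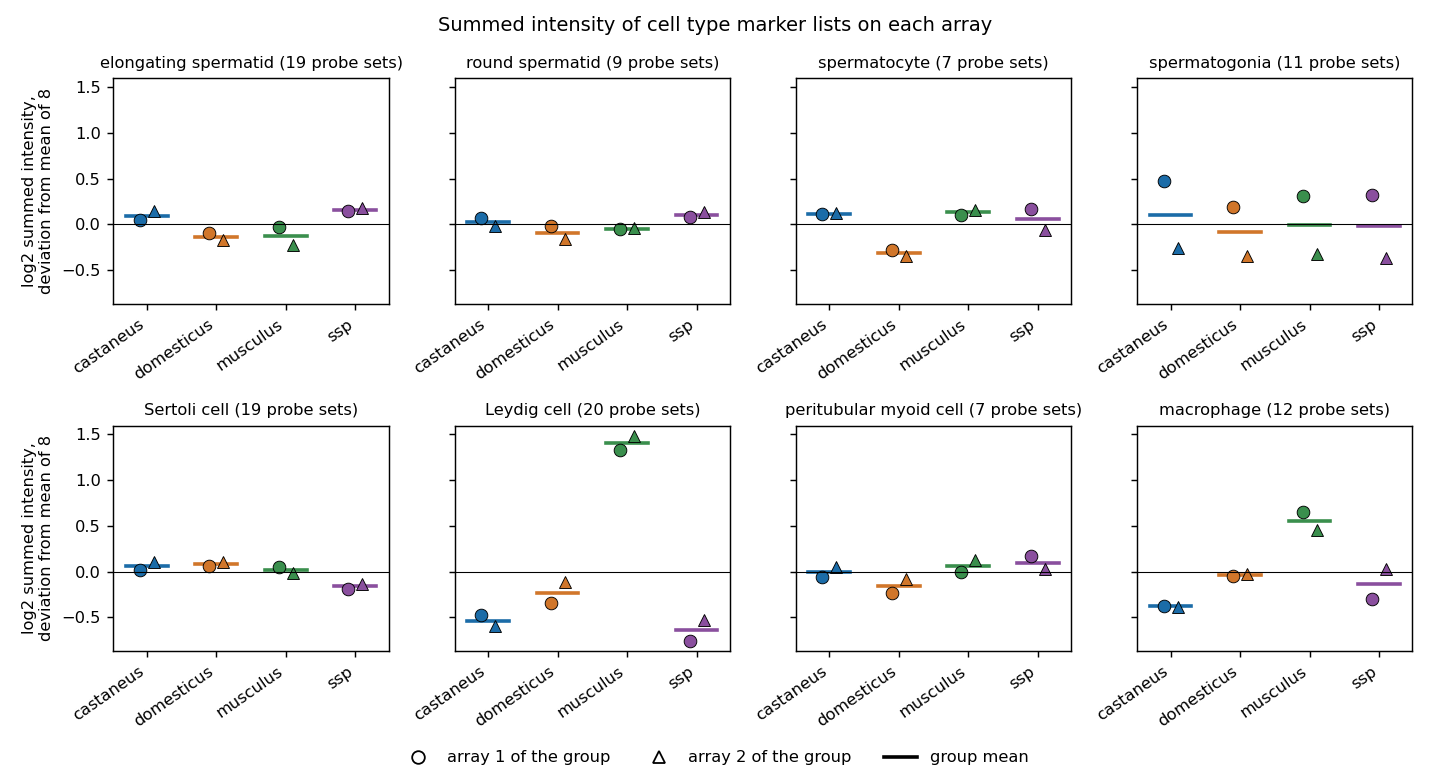
Summed intensity of 8 lists of cell type markers on each array, as log2 deviations from the mean over the 8 arrays. Circles and triangles are arrays 1 and 2 of a group and bars are group means. Spermatid lists differ little among groups, the Leydig cell and macrophage lists are highest on both musculus arrays, and the spermatogonia list is higher on array 1 than on array 2 in every group.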

How the data were processed

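The authors deposited a table of linear intensities from Affymetrix arrays of testis RNA, with 1 value for each probe set on each array. The trimmed mean, after leaving out 2% at each end, was 495.65 to 496.68 on every array, so the deposited values had been scaled. Summary software and saturation flags were not given in the sources used here. Symbols came from the platform annotation, updated through the Entrez number to RefSeq names of assembly GRCm38.p6. Of 12422 probe sets, 10833 had 1 symbol, 396 several and 1193 none, and 10817 matched the table.

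Values under the 10th percentile (18.7) were raised to it before log2. Probe sets reaching their array's 40th percentile on at least 2 arrays entered a linear model of limma 3.58.1 (R 4.3.3) with 1 mean per group over 8 arrays, 4 residual and 2.34 prior degrees of freedom. The fit was run on simulated normal data with known changes, where only the mean estimated change was checked. That check does not bear on how often a true difference is called. Group means are geometric. Alternatives changed the floor, filter, normalization, variance model, replicate block and arrays. The number of arrays limits the precision.

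The members and lists were chosen with earlier results of these data known. Named from each list were up to 4 probe sets that differed, otherwise the 2 with the widest range, and all beside the chromosome 16 cluster. For each member the 3 genes with the highest correlation were named. A list gene counts as measured if a probe set with 1 symbol names it.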

Additional observations from a re-analysis of the deposited data

How the results depend on the processing

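The count of member probe sets that differed was 0 among the 4 groups and in each of the 6 pairs, and it stayed 0 under all 16 alternatives of the first and 17 of each pair by limma, the fit on the 4 arrays of a pair among them. With so few member probe sets, a 0 is not a result about them under any of these settings. The labels do not say what same-numbered arrays share, and their deviations from the group means correlated at 0.03 to 0.17, above 0 in 6 of 6 pairs of groups and above 0.1 in 4, so pairing is hinted at by the data but not established. With the replicate number as a block, 0 members differed, and the block changed the call of no member. Over all lists of related genes and cell types, 7 probe sets differed among the groups, 1 with no filter on dim probe sets, 14 with the filter at the 60th percentile, 15 with a trended and robust variance, 2 with the replicate block, and from 0 to 1 with 1 array left out: 1 without either ssp array and 0 without any other. Of all tested probe sets, 156 differed, 42 with the replicate block, 31 to 383 under the other settings and 9 to 54 with 1 array left out. As to precision, 15 of the 36 member contrasts had a 95% interval within 2-fold in either direction.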

Other observations

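The ratio of Prm1 to Tnp2 followed the number of the array rather than the group. On the log2 scale it was -0.36, -0.57, -0.31 and -0.49 on array 1 of castaneus, domesticus, musculus and ssp, and -0.03, -0.09, -0.16 and -0.01 on array 2. It was thus higher on array 2 in all 4 groups, by 0.16 to 0.48. Prm3 over Tnp2 was also higher on array 2 in all 4 groups, by 0.05 to 1.12, and so was Prm2 over Tnp2, by 0.17 to 1.80. Prm1 had rank 3 in intensity on array 2 of every group and ranks 4 to 8 on array 1. These ratios were chosen after their values were seen. They come from 10 ratios between the 5 genes. All 3 hold Tnp2, so they are not separate observations, and no ratio without Tnp2 moved the same way in all 4 groups. The labels do not say what arrays with the same number share.

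The summed intensity of the spermatogonia markers was 6957, 5722, 6240 and 6299 on array 1 of the 4 groups in the same order and 4205, 3947, 4012 and 3893 on array 2. It is given as a value beside the ratio above.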
